A study of Mus musculus with 34 samples.

Results

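The genes described here are 10 members of the Polycomb repressive complexes, Bmi1, Ring1, Rnf2, Cbx2, Cbx7, Ezh1, Ezh2, Suz12, Eed and Jarid2, chosen because the gene name column of the array files holds these symbols. They are measured by 13 probes and are 10 of the 19408 genes tested. The study set cardiomyocytes made by direct conversion of mouse heart fibroblasts beside cardiomyocytes made through pluripotent cells, and followed the conversion in time. Total RNA of 17 groups of cells was hybridised to 34 one-colour expression arrays, 2 arrays per group.

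All cells came from CD1 mice that carry aMHC-GFP, a green fluorescent protein gene under the promoter of a cardiac myosin. The iCM (induced cardiomyocytes) were cardiac fibroblasts collected 4 weeks after infection with a retrovirus that carries Mef2c, Gata4 and Tbx5 on 1 transcript. The iPSC-CM came from cardiac fibroblasts turned into induced pluripotent stem cells with Oct4, Sox2, Klf4 and cMyc and then differentiated to the cardiac lineage. They form 3 groups, iPSC1-CM at day 13 (1 line), iPSC2-CM at day 9 (a second line) and the long-term culture iPSC2-CM D29. In comparisons, iPSC-CM stands for the equal-weight mean of iPSC1-CM and iPSC2-CM D9. Contractile iCM and the iPSC-CM were both kept in StemPro-34 medium with VEGF, bFGF and FGF10, unlike the freshly isolated cells. Neonatal cardiomyocytes (neoCM) and neonatal cardiac fibroblasts (neoCF) were isolated from pups at postnatal day 1.5. The time course has fibroblasts infected with the 3 cardiac factors (MGT) or with LacZ, a bacterial enzyme used as the control insert, at days 3, 5, 7, 10 and 14, and the fibroblasts before infection (CF D0). The labels do not say whether the 2 arrays of a group are separate cultures or whether cells were sorted, so the p-values measure the spread between these arrays, which may be technical.

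Polycomb proteins keep developmental genes silent through chromatin and work in a pair of main complexes. Polycomb repressive complex 1 (PRC1) has Ring1 or Rnf2 (RING1B) as the enzyme that places ubiquitin on histone H2A, a PCGF protein such as Bmi1 (PCGF4) that activates it, and, in the canonical form, a Cbx protein that reads the mark left by the other complex. Polycomb repressive complex 2 (PRC2) has Ezh1 or Ezh2 as the enzyme that methylates histone H3 at lysine 27, the core subunits Suz12 and Eed, and accessory proteins such as Jarid2. Bmi1 has been reported as a barrier to the direct conversion of mouse fibroblasts into cardiomyocytes, and it is best known as a repressor of the Ink4a/Arf genes that halt the cell cycle.

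Levels are log2 of the processed intensity minus the array's 75th percentile, so 0 is the brightness that 75% of the spots of that array stay under. A level is compared only between samples, never between genes. A change is called when its adjusted p over all tested genes is under 0.05 in limma, with no minimum fold. Between 28715 and 44881 of the 59305 spots of an array were well above background, and none was saturated. Of the 10 members, 9 were well above background on all 34 arrays, and Cbx7 on 28. The number of arrays limits the precision. Replicate arrays correlated at 0.984 to 0.997 over all probes, except those of iPSC2-CM D29, at 0.895, whose first array had the fibroblast markers at a median level of 4.06 and the second at -1.19. These 2 arrays enter the shared estimate of the spread, so counts of calls are also given without them where they differ by over 1.5 times. The median change of all genes was 0.21 for iPSC-CM against neoCF and -0.22 for iCM against iPSC-CM, which quantile normalization moved to 0.05 and -0.01. In the other 16 of the 18 comparisons it stayed within 0.14.

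The labelled cell types were set against marker genes. The median level of 6 cardiomyocyte markers was 4.81 and 4.76 on the iCM arrays, 4.70 and 4.79 in iPSC1-CM, 6.72 and 7.05 in iPSC2-CM D9, 6.66 and 6.75 in neoCM, and 1.04 and 0.27 in neoCF. The 7 fibroblast markers had median levels of 6.59 and 7.07 in neoCM, against 7.03 and 7.02 in neoCF, so fibroblast transcripts are present in the neoCM libraries too. Among these markers, Thy1 (-2.88) and Pdgfra (-2.16) were called lower in neoCM against neoCF, and the rest were not called. The 5 macrophage markers stood at 4.06 and 4.05 in iCM, between -5.91 and -4.15 in the iPSC1-CM and iPSC2-CM D9 arrays, at -2.14 and -1.98 in neoCM and at 2.98 and 2.43 in neoCF. They also differed between the LacZ D10 arrays, at 1.47 and 3.74. Their part in the results was not tested, and in bulk RNA fewer cells of a type and less RNA per cell cannot be told apart.

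Bmi1 was high in the directly converted cells and in the fibroblasts of the time course and low in iPSC1-CM and iPSC2-CM D9. Its level was 2.75 and 2.73 on the iCM arrays, 0.83 and 0.76 in iPSC1-CM, 1.12 and 0.65 in iPSC2-CM D9, 2.33 and 1.96 in iPSC2-CM D29, 1.82 and 1.62 in neoCM, and 1.80 and 1.86 in neoCF. All iCM arrays lay above all iPSC-CM, neoCM and neoCF arrays, and the neoCM and neoCF arrays overlapped. Fibroblasts before infection stood at 2.71 and 2.62, within the range of the later MGT and LacZ arrays. Ranked by group means, MGT D10 (2.86), MGT D14 (2.81), iCM (2.74), LacZ D14 (2.71) and CF D0 (2.67) came first. Next were MGT D7 (2.64), LacZ D10 (2.62), LacZ D7 (2.58), LacZ D5 (2.44), MGT D5 (2.43), LacZ D3 (2.35) and MGT D3 (2.20). The order ended with iPSC2-CM D29 (2.14), neoCF (1.83), neoCM (1.72), iPSC2-CM D9 (0.88) and iPSC1-CM (0.80). In 9 of the 16 steps of this order the neighbours differed by no more than the larger of their SDs, namely MGT D10 and MGT D14, each step from iCM to LacZ D10, LacZ D5 and MGT D5, MGT D3 and iPSC2-CM D29, neoCF and neoCM, and the iPSC lines. The step from neoCM to iPSC2-CM D9, 0.84, was the widest of the 16.

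**Figure D1:**
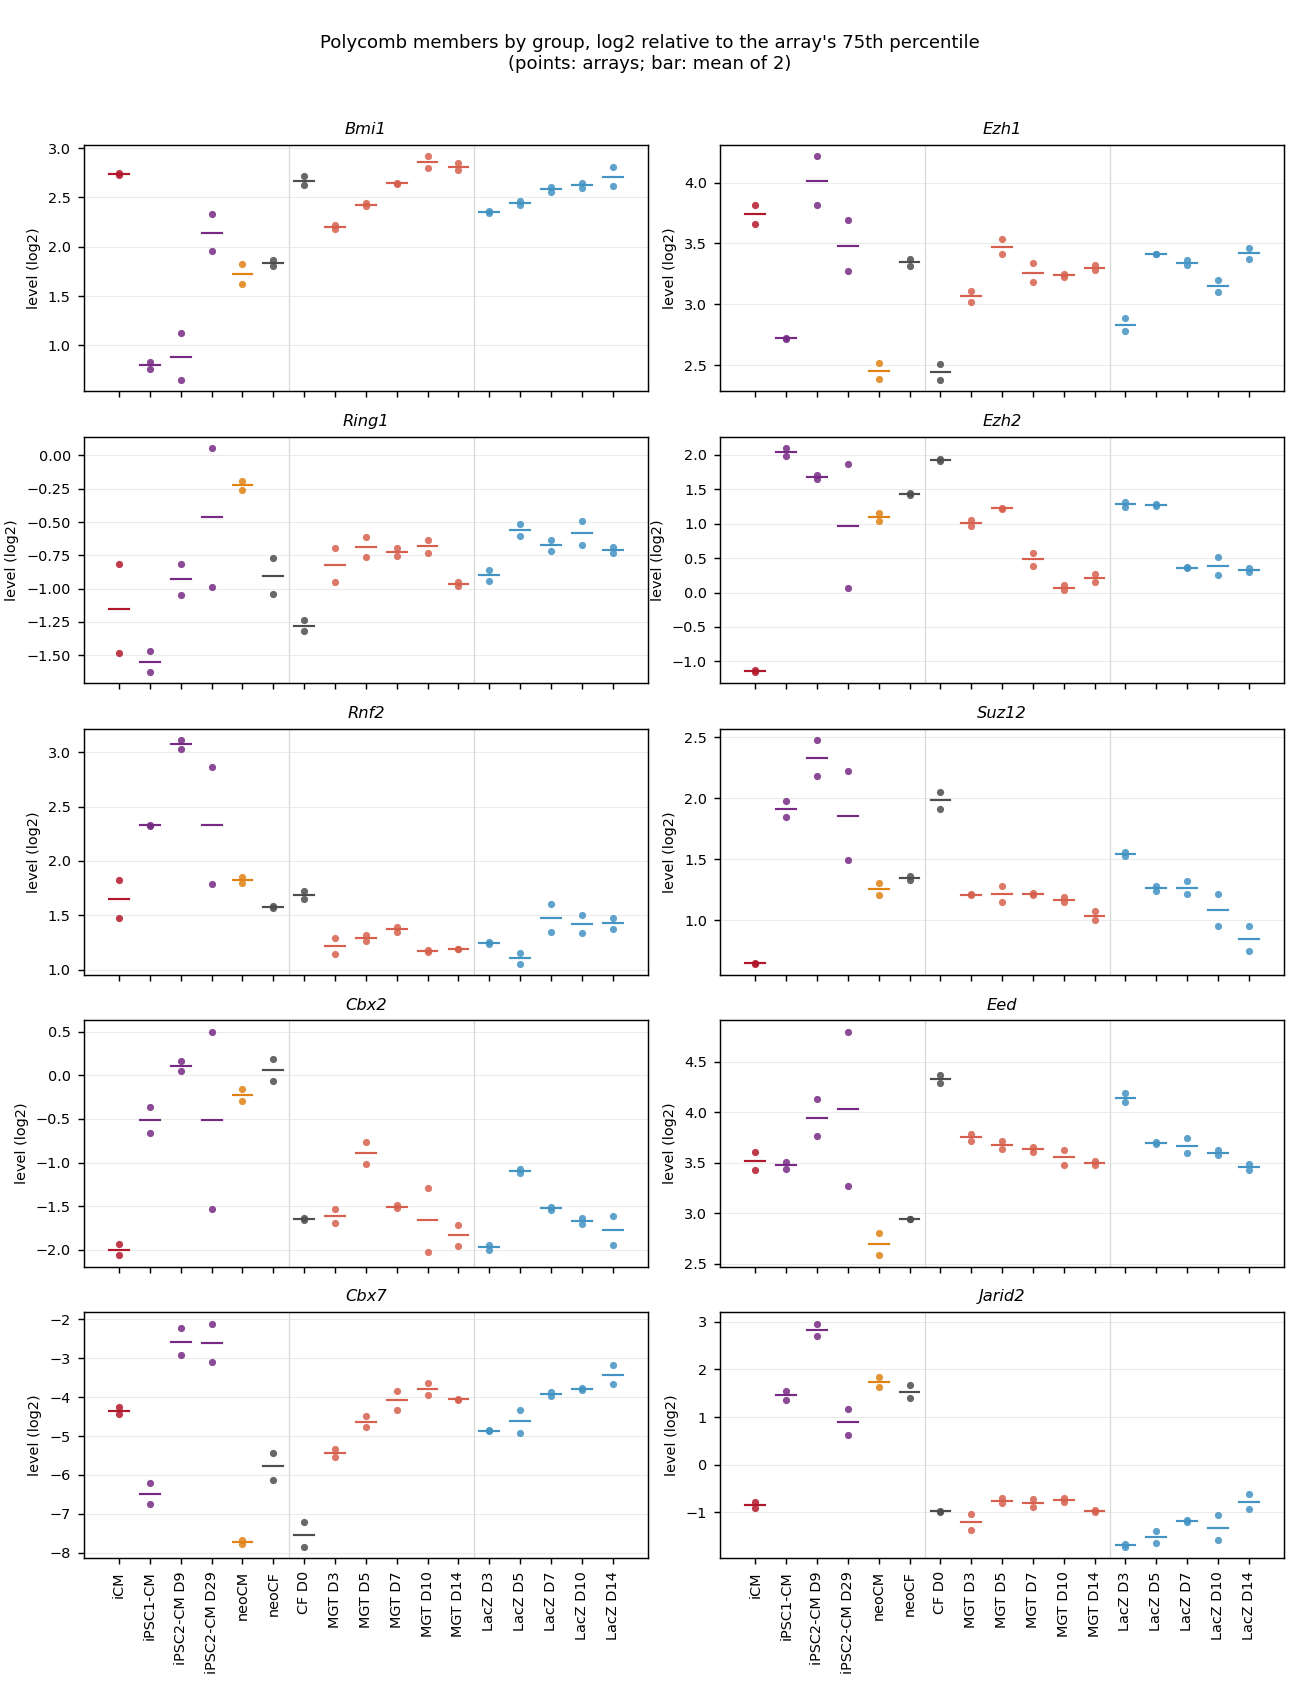
Level of each member (log2 relative to the array's 75th percentile, vertical axis) in the 17 groups (horizontal axis); points are arrays, bars the mean of 2, and vertical lines separate the end-stage cells, CF D0 with MGT, and LacZ. Bmi1 is lowest in iPSC1-CM and iPSC2-CM D9 (means 0.80 and 0.88), Ezh2 is lowest in iCM (mean -1.14), and Jarid2 lies above 0 on every array of iPSC-CM, neoCM and neoCF and under 0 on every other.

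Rnf2 and Ring1 encode the E3 ligase of PRC1. Rnf2 stood at 1.48 and 1.83 on the iCM arrays, 2.32 and 2.33 in iPSC1-CM, 3.11 and 3.03 in iPSC2-CM D9, 1.85 and 1.80 in neoCM, and 1.59 and 1.56 in neoCF. The 4 arrays of the iPSC lines were higher than those of iCM, neoCM and neoCF. Ring1 lay at -1.48 and -0.81 in iCM, between -1.62 and -0.81 in the iPSC1-CM and iPSC2-CM D9 arrays, at -0.19 and -0.26 in neoCM and at -0.77 and -1.04 in neoCF, with the neoCM arrays the highest of these 5 groups. It had the narrowest range of group means of the 10 members, 1.32, from -0.22 in neoCM to -1.55 in iPSC1-CM, and 86.7% of the tested genes had a wider one. The median range over all genes was 2.53, and that of Bmi1 was 2.06.

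Cbx2 and Cbx7, readers of methylated histone H3 in canonical PRC1, followed different patterns. Cbx2 stood at -2.07 and -1.93 on the iCM arrays, -0.37 and -0.66 in iPSC1-CM, 0.16 and 0.05 in iPSC2-CM D9, -0.15 and -0.30 in neoCM, and 0.18 and -0.07 in neoCF. Every iCM array was below every array of the other 4 groups. In the CF D0 arrays, Cbx2 was at -1.63 and -1.66. Cbx7 was well above background on both iCM arrays, at -4.26 and -4.44, and on no array of neoCM (-7.77 and -7.67) or CF D0 (-7.21 and -7.86). It stood at -6.21 and -6.76 in iPSC1-CM, where 1 of the 2 arrays was above background, at -2.23 and -2.92 in iPSC2-CM D9 and at -5.43 and -6.12 in neoCF. Its iPSC-CM mean therefore joins a group near background and the group with the highest level, and the range of its group means was 5.15, with 15.4% of the genes wider.

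The PRC2 enzymes Ezh2 and Ezh1 had different patterns. Ezh2 stood at -1.13 and -1.15 on the iCM arrays, 2.10 and 1.98 in iPSC1-CM, 1.70 and 1.65 in iPSC2-CM D9, 1.04 and 1.15 in neoCM, and 1.44 and 1.42 in neoCF. The iCM arrays were the lowest of all 34 for Ezh2, and their mean was 1.21 below the next, that of MGT D10. The group means of Ezh2 ran from iPSC1-CM (2.04), CF D0 (1.93), iPSC2-CM D9 (1.68) and neoCF (1.43) through the day 3 and day 5 groups, neoCM (1.10) and iPSC2-CM D29 (0.97) to the groups of days 7 to 14 (0.07 to 0.48) and iCM (-1.14). Ezh1, the paralogue with the weaker methylating activity, known to be abundant in cells that no longer divide, was at 3.81 and 3.66 on the iCM arrays, 2.73 and 2.71 in iPSC1-CM, 4.22 and 3.81 in iPSC2-CM D9, 2.51 and 2.38 in neoCM, and 3.38 and 3.32 in neoCF. Only the iPSC2-CM D9 mean was above the iCM mean for Ezh1.

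Suz12 and Eed, which the enzyme needs for activity, had ranges of group means of 1.68 and 1.64, between those of Ezh1 (1.57) and Ezh2 (3.18). Suz12 was lowest in iCM, at 0.65 and 0.65, against 1.98 and 1.85 in iPSC1-CM, 2.48 and 2.18 in iPSC2-CM D9, 1.21 and 1.31 in neoCM, and 1.33 and 1.37 in neoCF. Eed was at 3.61 and 3.43 on the iCM arrays, 3.51 and 3.44 in iPSC1-CM, 4.13 and 3.77 in iPSC2-CM D9, 2.81 and 2.58 in neoCM, and 2.95 and 2.95 in neoCF. Both neonatal groups were below all other groups for Eed.

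Jarid2, a DNA-binding protein that helps to recruit PRC2 and is needed for heart development in the mouse, was under 0 in CF D0 and every infected group, iCM included, and above 0 in the others. It was at -0.91 and -0.77 on the iCM arrays, 1.56 and 1.36 in iPSC1-CM, 2.96 and 2.69 in iPSC2-CM D9, 1.83 and 1.64 in neoCM, 1.41 and 1.66 in neoCF, and -0.99 and -0.96 in CF D0. The freshly isolated fibroblasts thus stood with neoCM and iPSC-CM, and the fibroblasts at the start of the time course with iCM. The range of its group means was 4.52, and 20.8% of the genes had a wider one. Of the 16 steps between neighbours in the order of group means, 15 were within the larger SD for Ring1, 12 each for Cbx2 and Eed, 11 for Rnf2, 10 each for Suz12 and Jarid2, 9 each for Cbx7 and Ezh1 and 6 for Ezh2.

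The promoters of Ezh2, Suz12 and Bmi1 are shown because E2F factors are known to drive Ezh2 in dividing cells. Levels of Ezh2 and Suz12 were lowest in iCM, and that of Bmi1 was not. Cbx2 was lowest in iCM too, but had no promoter entry. Sequences are 300 bases of GRCm38.p6 from RefSeq, from 250 bases before the gene's start to 50 after it, 5′ to 3′ on the gene's strand, and 9 of the 10 members had an entry. Capitals mark a match to the E2F motifs TTTCCCGC, TTTGGCGC, TTTCGCGC or TTTGCCGC on either strand.
Ezh2, chr6:47594981-47595280, minus strand: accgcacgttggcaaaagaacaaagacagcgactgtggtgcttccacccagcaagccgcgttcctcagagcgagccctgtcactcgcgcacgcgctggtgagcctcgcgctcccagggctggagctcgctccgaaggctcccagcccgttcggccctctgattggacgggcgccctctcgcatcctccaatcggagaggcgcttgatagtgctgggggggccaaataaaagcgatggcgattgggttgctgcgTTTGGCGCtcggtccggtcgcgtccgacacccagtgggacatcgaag
Suz12, chr11:79992856-79993155, plus strand: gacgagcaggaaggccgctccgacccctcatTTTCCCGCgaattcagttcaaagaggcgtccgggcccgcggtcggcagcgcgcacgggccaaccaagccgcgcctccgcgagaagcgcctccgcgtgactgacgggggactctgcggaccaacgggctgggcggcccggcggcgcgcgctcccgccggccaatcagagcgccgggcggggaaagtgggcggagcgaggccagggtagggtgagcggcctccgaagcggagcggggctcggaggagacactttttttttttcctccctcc
Bmi1, chr2:18676768-18677067, plus strand: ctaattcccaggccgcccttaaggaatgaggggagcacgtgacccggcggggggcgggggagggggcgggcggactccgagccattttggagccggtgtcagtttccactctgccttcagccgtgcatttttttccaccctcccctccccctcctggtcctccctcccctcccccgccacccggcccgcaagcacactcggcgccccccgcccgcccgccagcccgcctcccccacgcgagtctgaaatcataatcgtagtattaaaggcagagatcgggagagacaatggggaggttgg
The match in Ezh2 begins 3 bases past the start site and that in Suz12 219 bases before it. Of 32851 RefSeq promoter windows, 2.26% hold at least 1 of these 4 motifs. Of the 9 members 2 do, Ezh2 and Suz12, both among those shown. A second motif searched on both strands, the cell cycle homology region (TTTGAA or TTCGAA), lies in 19.2% of the windows and in those of Suz12, Eed and Cbx7. A match is a description of the letters and was not tested as a binding site.

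Bmi1 was higher and the PRC2 enzyme Ezh2 lower in iCM than in iPSC-CM. In iCM against iPSC-CM, Bmi1 rose 3.73-fold (log2 change 1.90, SE 0.12, adjusted p = 2.65e-11, limma), and Ezh2 fell 7.99-fold (log2 change -3.00, SE 0.27, adjusted p = 6.3e-09). Jarid2 fell 7.90-fold, Cbx2 by 1.80 on the log2 scale, Suz12 by 1.47 and Rnf2 by 1.05, and Ezh1 rose by 0.37, with its iCM arrays within the range of the iPSC-CM arrays. Of the 10 members, 2 rose and 5 fell, where 70.1% of all genes were called, and the median change was -0.62 over the members and -0.22 over all genes. Ring1, Eed and Cbx7 were not called, with log2 changes of 0.09 (95% interval -0.33 to 0.51), -0.19 (-0.69 to 0.30) and 0.18 (-0.40 to 0.76). The groups lie on different slides and scan days, which cannot be told apart from the cell type, and 17 of the 20 cell cycle genes were lower and 1 higher in iCM. All 5 macrophage and 5 of 7 fibroblast markers were higher in iCM too, and their part was not tested. The iCM were also collected at a later time than the cells of the iPSC-CM mean, which cannot be told apart from the cell type either. In the long-term culture iPSC2-CM D29, left out of that mean, Bmi1 had a mean of 2.14, against 2.74 in iCM. Ezh2 had a mean of 0.97 there (SD 1.27), against -1.14 in iCM. A difference between iCM and iPSC2-CM D29 was not tested.

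Against freshly isolated neoCF, iCM had more Bmi1, Ezh1 and Cbx7 and less Ezh2, Jarid2, Cbx2 and Suz12. Bmi1 rose 1.88-fold (log2 change 0.91, SE 0.13, adjusted p = 1e-05), Cbx7 2.68-fold and Ezh1 1.31-fold. Ezh2 fell 5.94-fold (log2 change -2.57, SE 0.31, adjusted p = 7.85e-07), Jarid2 5.19-fold, Cbx2 4.16-fold and Suz12 1.62-fold. This makes 3 members higher and 4 lower, where 58.0% of all genes were called, with a median of -0.08 over the members and 0.01 over all genes. Of the 4 endothelial markers 3 were lower too, with medians of -3.75 and -3.64 in iCM and 2.85 and 2.84 in neoCF, and their part was not tested. The groups share no slide or scan day, which cannot be told apart from the cell type. The call of Ezh1 was lost in 9 of 19 alternatives and its direction turned in 2 of them, to -0.02 with normexp background correction and to -0.18 with its dimmest probe.

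The choice of fibroblast decides several of these values. Against CF D0, a comparison chosen after seeing the data, the change in iCM was 0.07 for Bmi1, 0.14 for Jarid2 and -0.35 for Cbx2, and none of these was called. Of the 5 members called there, Ezh2 (-3.07), Suz12 (-1.33) and Eed (-0.81) fell and Ezh1 (1.29) and Cbx7 rose, the last from levels not well above background, where 60.1% of all genes were called. Against LacZ D14, fibroblasts 14 days after infection with the control virus, 46.9% of all genes were called and 2 members, both lower in iCM: Ezh2 by 1.47 on the log2 scale (adjusted p = 0.000635) and Cbx7 by 0.93 (adjusted p = 0.0236). Bmi1 differed there by 0.03 (adjusted p = 0.88). Ezh2 was thus lower in iCM against each of the 3 fibroblast groups. Bmi1 was called higher against 1 of the 3, the freshly isolated one. All 3 lie on a slide and scan day that iCM does not share, which cannot be told apart from the cell type.

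In iPSC-CM against neoCF, the ligase Rnf2 and the PRC2 core subunits were higher and Bmi1 was lower. Rnf2 rose 2.18-fold (log2 change 1.12, SE 0.18, adjusted p = 2.17e-05), and Suz12 (0.77), Eed (0.76), Jarid2 (0.61) and Cbx7 (1.25) rose as well. For Jarid2 and Cbx7 the arrays overlapped, and only the iPSC2-CM D9 mean was above that of neoCF. Bmi1 fell 1.98-fold (log2 change -0.99, SE 0.12, adjusted p = 4.29e-07). That is 5 members higher and 1 lower, where 62.9% of all genes were called, with a median of 0.52 over the members and 0.21 over all genes. Both sides share a scan day but no slide. Against CF D0, where 62.8% of the genes were called, Eed fell by 0.62 in place of its rise and Suz12 was at 0.14, not called, while Bmi1 fell by 1.83. Between the iPSC lines themselves, iPSC2-CM D9 against iPSC1-CM, 6 members were called where 40.0% of all genes were, but not Bmi1 (0.09) or Ezh2 (-0.37). The fit without iPSC2-CM D29 called 9 members where 55.3% of all genes were, adding Ezh2 (-0.37, adjusted p = 0.00104), Eed (0.47) and Cbx2 (0.62), and Bmi1 was again not called.

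Between freshly isolated neoCM and neoCF, 3 members were called. Ring1 rose by 0.68 on the log2 scale in neoCM (SE 0.23, adjusted p = 0.0191), Ezh1 fell by 0.90 (SE 0.13, adjusted p = 1.42e-05) and Cbx7 fell, without a fold since it was not well above background in neoCM. Bmi1 changed by -0.11 (95% interval -0.39 to 0.17), Ezh2 by -0.34 (-0.98 to 0.30) and Jarid2 by 0.20 (-0.20 to 0.59), none of them called. The share of all genes called was 51.3%. The groups share no slide or scan day, which cannot be told apart from the cell type. In a fit without the 2 iPSC2-CM D29 arrays, where 64.8% of all genes were called, Ezh2, Eed and Rnf2 were called as well, with unchanged log2 values of -0.34, -0.25 and 0.25. With CF D0 as the fibroblast, where 63.9% were called, 7 members were called in neoCM, among them Bmi1 at -0.95 and Jarid2 at 2.71.

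Both kinds of reprogrammed cells differed from neoCM in 9 of the 10 members. In iCM, Bmi1 rose 2.02-fold, Ezh1 2.45-fold, Eed by 0.82 on the log2 scale and Cbx7 at least 2.18-fold, a bound set by the lowest detectable signal of the neoCM arrays, and Jarid2 fell 5.96-fold, Ezh2 4.71-fold, Cbx2 3.42-fold, Ring1 by 0.92 and Suz12 by 0.61. The share of all genes called in that comparison was 59.2%. In iPSC-CM, Cbx7, Eed (1.02), Ezh1 (0.92), Rnf2 (0.88), Suz12 (0.86), Ezh2 (0.76) and Jarid2 (0.41) rose and Ring1 (-1.01) and Bmi1 (-0.88) fell, where 62.6% of all genes were called. No fold is given for Cbx7, since its iPSC1-CM arrays (-6.21 and -6.76) lie below the lowest detectable signal of the neoCM arrays (-5.55 and -5.40), and iPSC2-CM D9 alone stands above it. The median over the members was -0.39 in iCM and 0.81 in iPSC-CM, and over all genes -0.06 and 0.10. Jarid2 was higher in iPSC2-CM D9 alone, since its iPSC1-CM arrays (1.56 and 1.36) lay below the neoCM arrays (1.83 and 1.64). The call of Jarid2 in iPSC-CM was lost in 9 of 17 alternatives, and the 2 comparisons share the neoCM arrays. No slide or scan day is shared by iPSC-CM and neoCM, which cannot be told apart from the cell type. The iCM arrays share a slide and the scan day with neoCM.

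**Figure D2:**
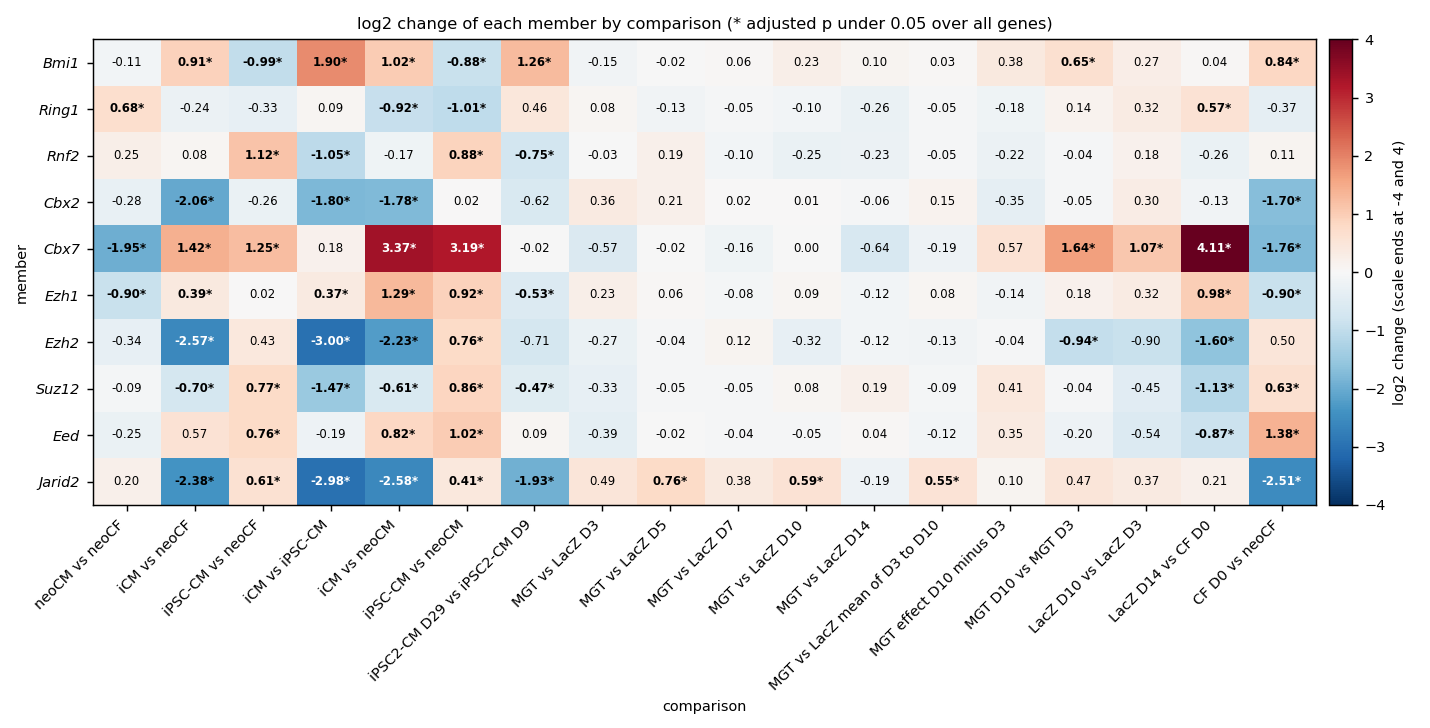
Fitted log2 change of the 10 members (rows) in the 18 comparisons (columns), red for higher and blue for lower in the group named first; an asterisk marks an adjusted p under 0.05. Bmi1 is 1.90 and Ezh2 -3.00 in iCM against iPSC-CM, and in the 7 comparisons of MGT with LacZ the one member called is Jarid2; values of Cbx7 against neoCM or CF D0, where it was not well above background, are not sizes.

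With long-term culture of the second iPSC line, Bmi1 rose and Jarid2 fell. In D29 against D9, Bmi1 was higher by 1.26 on the log2 scale (SE 0.13, adjusted p = 3.66e-07), with 2.33 and 1.96 at day 29 and 1.12 and 0.65 at day 9. Jarid2, at 0.62 and 1.17 on day 29 and 2.96 and 2.69 on day 9, fell by 1.93 (adjusted p = 1.31e-07). Rnf2 (-0.75), Ezh1 (-0.53) and Suz12 (-0.47) fell too, so 5 members were called, where 43.0% of all genes were. Ezh2 was at 1.86 and 0.07 on day 29, Eed at 3.27 and 4.80 and Cbx2 at 0.50 and -1.53, so for these 3 the 2 arrays lie further apart than the groups' means, and none was called. The same holds for Rnf2 (1.79 and 2.87 on day 29) and Suz12 (1.5 and 2.22), whose changes were -0.21 and -0.11, not called, without the first day 29 array and -1.29 and -0.83 without the second. Bmi1, Jarid2 and Ezh1 were called without either array, the lone array being taken to vary like the other groups. The cell cycle genes differ between the same 2 arrays, with medians of 2.71 and -1.35. Whether 1 of the 2 arrays failed or carries another label than its RNA could not be settled from these data. Fitted on these 4 arrays alone, or with arrays weighted by their quality, limma called 0 of the 10 members, with 2 at an unadjusted p under 0.05 in each, and Bmi1 had an adjusted p of 0.358 and 0.0874.

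Between MGT and LacZ on the same days, Jarid2 was the 1 member called, and it was higher with the cardiac factors. On day 5 it was at -0.80 and -0.70 in MGT, against -1.38 and -1.64 in LacZ, and on day 10 at -0.69 and -0.78 in MGT, against -1.59 and -1.05 in LacZ. All MGT arrays of days 3 to 10 lay above the LacZ arrays of the same day. It rose by 0.76 on day 5 (adjusted p = 0.0084, where 14.0% of all genes were called) and by 0.59 on day 10 (adjusted p = 0.0407, 15% of genes, a call lost in 5 of 15 alternatives). Over days 3 to 10 together, where both sides share their slides, it rose 1.47-fold (log2 change 0.55, SE 0.09, adjusted p = 0.000101, 34.9% of genes). On day 14 it was at -0.99 and -0.94 in MGT, against -0.61 and -0.93 in LacZ, a change of -0.19 (95% interval -0.59 to 0.20), with the 2 sides on different slides. The LacZ D10 arrays differ in macrophage markers, with medians of 1.47 and 3.74, and their part was not tested.

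On its brightest probe, Bmi1 differed from its control by at most 0.23 on any day and was not called. Its second probe was called higher on day 14 (0.54), when MGT and LacZ lie on different slides. Its level in MGT was 2.22 and 2.18 on day 3, 2.44 and 2.41 on day 5, 2.65 and 2.64 on day 7, 2.92 and 2.79 on day 10 and 2.85 and 2.78 on day 14. In LacZ it was 2.34 and 2.36, 2.43 and 2.46, 2.56 and 2.61, 2.65 and 2.60, and 2.61 and 2.81 on the same days. The arrays of MGT were below those of LacZ on day 3 and above them on days 7 and 10, with differences of the means of -0.15, 0.06 and 0.23. Averaged over days 3 to 10 the difference was 0.03 (95% interval -0.11 to 0.17, adjusted p = 0.753), and on day 14 it was 0.10 (-0.18 to 0.38). The day 3 arrays of both series lay below the CF D0 arrays.

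**Figure D3:**
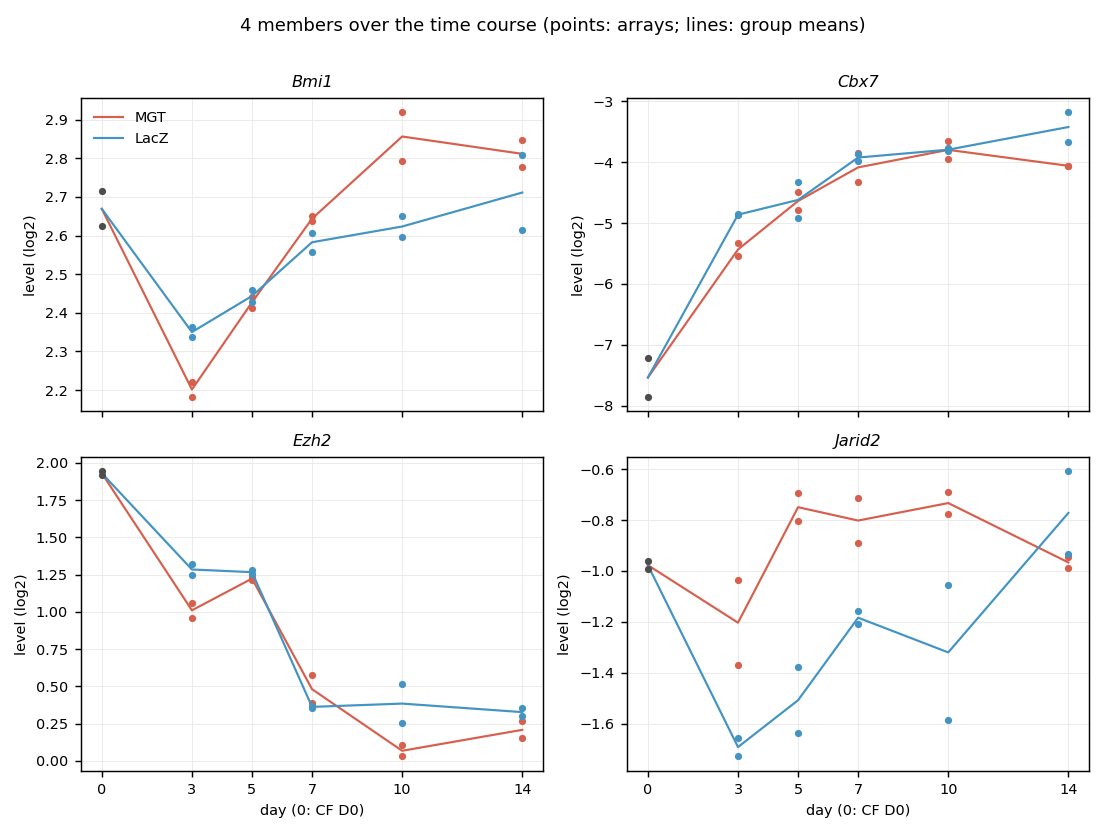
Levels of Bmi1, Cbx7, Ezh2 and Jarid2 (log2, vertical axis) by day (horizontal axis), with MGT in red, LacZ in blue and CF D0 as the grey points at day 0; points are arrays and lines join group means. Jarid2 lies higher in MGT on days 3 to 10 and not on day 14, Cbx7 climbs and Ezh2 declines in both series.

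By limma, 0 of the 10 members were called on day 3 (8.36% of all genes were), on day 7 (14.5%) and on day 14 (23.8%), with 1, 0 and 0 members at an unadjusted p under 0.05. The change of the MGT effect between day 10 and day 3 was called for 0 members as well, with 0 at an unadjusted p under 0.05 and 2.37% of all genes called. Its largest sizes were 0.57 for Cbx7, 0.41 for Suz12 and 0.38 for Bmi1. The fit without the iPSC2-CM D29 arrays called 4 members on day 3 (21.6% of all genes), with Jarid2 higher (0.49) and Eed (-0.39), Suz12 (-0.33) and Ezh2 (-0.27) lower in MGT. It called Jarid2 and Ezh2 (-0.32) on day 10 (29.9%) and Jarid2, Ezh2 (-0.13) and Eed (-0.12) over days 3 to 10 (50.8%). The residual SD of Ezh2 was 0.31 with those arrays and 0.07 without them, and that of Eed 0.28 and 0.10.

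Within each series over time, 3 members were called in MGT and 1 in LacZ. Cbx7 was at -3.95 and -3.65 in MGT D10, against -5.54 and -5.33 in MGT D3, and at -3.82 and -3.78 in LacZ D10, against -4.87 and -4.86 in LacZ D3. Ezh2 was at 0.10 and 0.03 in MGT D10, against 1.06 and 0.96 in MGT D3, and at 0.25 and 0.51 in LacZ D10, against 1.32 and 1.25 in LacZ D3. For both genes the arrays of the 2 days did not overlap in either series. In MGT D10 against MGT D3, on different slides, Bmi1 rose 1.57-fold (log2 change 0.65, SE 0.13, adjusted p = 0.00213), Cbx7 rose 3.11-fold and Ezh2 fell 1.92-fold (adjusted p = 0.0492), where 12.6% of all genes were called. There the fit without iPSC2-CM D29 called Jarid2 (0.47) too, with 29.6% of the genes. In LacZ D10 against LacZ D3, also on different slides, Cbx7 rose 2.09-fold (adjusted p = 0.0291), with 15.6% of all genes called. Here the fit without iPSC2-CM D29 called Ezh2 (-0.90), Eed (-0.54), Suz12 (-0.45) and Ezh1 (0.32) too, with 35.1% of the genes. Bmi1 changed by 0.27 in LacZ (adjusted p = 0.185), and the difference from its change in MGT is the 0.38 above, not called. The calls of Ezh2 in MGT and of Cbx7 in LacZ were lost in 8 and 7 of 15 alternatives.

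Over the whole 14 days with the control virus, on the same slide, LacZ D14 against CF D0 had Cbx7 higher at least 3.65-fold and Ezh1 1.97-fold, and Ring1 rose by 0.57, a call lost in 9 of 15 alternatives. Cbx7 was at -3.66 and -3.18 in LacZ D14, against -7.21 and -7.86 in CF D0, where it was not well above background. Ezh2, at 0.35 and 0.30 in LacZ D14 and 1.94 and 1.92 in CF D0, fell 3.04-fold (log2 change -1.60, SE 0.31, adjusted p = 0.000237). Suz12 fell by 1.13, with 0.95 and 0.75 in LacZ D14 and 2.05 and 1.91 in CF D0, and Eed fell by 0.87. These are 3 members higher and 3 lower, where 47.7% of all genes were called. Macrophage markers were also higher, with medians of 4.57 and 4.90 in LacZ D14 and 0.35 and 0.32 in CF D0, and their part was not tested.

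The uninfected fibroblast groups differed in 7 members. In CF D0 against neoCF, on the same slides, Eed rose 2.61-fold, Bmi1 1.79-fold and Suz12 1.55-fold, and Jarid2 fell 5.71-fold (log2 change -2.51, SE 0.19, adjusted p = 1.33e-09), Cbx2 3.26-fold and Ezh1 1.87-fold. Cbx7 fell to levels not well above background. The share of all genes called was 54.6%. The 4 endothelial markers fell too, with a median level of 0.20 and 0.35 in CF D0 and 2.85 and 2.84 in neoCF. All 6 cardiomyocyte markers fell, with medians of -2.71 and -2.83 in CF D0 and 1.04 and 0.27 in neoCF. Of the 4 smooth muscle and pericyte markers 2 fell and 1 rose, with medians of 1.13 and 1.11 in CF D0 and 3.79 and 3.85 in neoCF. Of the macrophage markers, Csf1r, C1qa and Mrc1 fell and Cd68 and Adgre1 rose, with medians of 0.35 and 0.32 in CF D0 and 2.98 and 2.43 in neoCF. The part of these cells was not tested.

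The other Polycomb genes were taken from lists that do not hold the members. Of 17 PRC1 partners, 4 rose and 5 fell in iCM against neoCF (median -0.23, against 0.01 over all genes), where 58.0% of all genes were called. Pcgf5, a PCGF protein of variant PRC1, rose by 3.01, with 3.44 and 3.12 in iCM and 0.22 and 0.31 in neoCF, and Phc3 (0.69) and Pcgf1 (0.52) rose. Rybp (-1.07), Kdm2b (-1.04), which brings variant PRC1 to CpG islands, and Pcgf2 (-0.68), the closest paralogue of Bmi1, fell. Against iPSC-CM, 1 of the 17 rose in iCM, Cbx6 (0.39), and 9 fell (median -0.43, against -0.22 over all genes), where 70.1% of all genes were called, led by Pcgf2 (-1.60), Pcgf3 (-0.99) and Kdm2b (-0.96). Pcgf2 fell in both of these comparisons, in which Bmi1 rose.

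Of 7 PRC2 partners, 1 rose and 5 fell in iCM against neoCF, with a median of -0.68 where that of all genes was 0.01 and 58.0% were called. The counts against iPSC-CM were also 1 and 5, with a median of -1.42 where that of all genes was -0.22 and 70.1% were called. Epop stood at -4.33 and -4.00 in iCM, between -0.62 and 0.58 in the iPSC1-CM and iPSC2-CM D9 arrays, and at -0.81 and -0.36 in neoCF. Its fall was 4.10 against iPSC-CM and 3.58 against neoCF. Phf19 (-1.67 and -2.49) and Mtf2 (-2.05 and -0.83), which help to bring PRC2 to chromatin, fell in both, and Phf1 (0.73 and 0.65), their paralogue, rose in both. In iPSC-CM against neoCF, Rbbp7 (1.83), Mtf2 (1.23) and Rbbp4 (0.37) rose and Phf19 (-0.82) and Aebp2 (-0.80) fell. Of the 9 genes that oppose Polycomb, 4 fell in iCM against neoCF (median -0.30), where 28.4% of all genes fell, led by Kdm6b (-1.25), a demethylase of histone H3 lysine 27, Kmt2a (-1.11) and Kmt2b (-1.10).

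In the time course, Pcgf5 was at 4.40 and 4.40 in MGT on day 5, against 2.76 and 2.78 in LacZ. It rose by 1.30 over days 3 to 10 and by 1.74 on day 14. Kdm6a, a demethylase that removes the PRC2 mark, rose by 0.47 over days 3 to 10 and by 0.58 on day 14. On day 14 MGT and LacZ lie on different slides. Over days 3 to 10, where 34.9% of all genes were called, 2 of the 17 PRC1 partners rose, Pcgf5 and Cbx8 (0.17), and 3 fell, Scmh1 (-0.47), Phc2 (-0.39) and Pcgf2 (-0.31). Of the 7 PRC2 partners, Mtf2 rose (0.25) and Phf19 fell (-0.50), and of the 9 genes that oppose Polycomb, Kdm6a was the 1 called.

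The Ink4a/Arf and Ink4b genes are known targets of Bmi1. Cdkn2a was highest in iCM and LacZ D14, and Cdkn2b in LacZ D14 and LacZ D10. Cdkn2a stood at 5.34 and 5.00 in iCM, between -0.43 and 1.00 in the iPSC1-CM and iPSC2-CM D9 arrays, at -3.17 and -4.18 in neoCM and at -4.15 and -4.27 in neoCF. CF D0 was at -2.15 and -2.21, and LacZ D14 at 5.20 and 5.01. In iCM against iPSC-CM, Cdkn2a rose by 4.91 and Cdkn2b by 3.99. In LacZ D14 against CF D0, where Bmi1 changed by 0.04 (95% interval -0.24 to 0.32), Cdkn2a rose by 7.28 and Cdkn2b by 5.28. From day 3 to day 10, which lie on different slides, Cdkn2a rose by 3.03 in MGT and by 3.73 in LacZ. Cdkn2b rose by 1.84 in LacZ over these days, and its change of 1.16 in MGT was not called. Cdkn2b was lower with MGT than with LacZ, at 3.12 and 3.14 in MGT against 4.57 and 4.88 in LacZ on day 14, a fall of 1.60 between arrays on different slides.

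Across the 17 group means, Ezh2 went with the cell cycle genes. Its correlation with the median level of the 20 genes was 0.884 (Pearson; Spearman 0.897), that of Suz12 was 0.555 and that of Bmi1 -0.573. Groups share slides and scan days, so these are descriptions of 17 points with no p. In iCM against neoCF, where 28.4% of all genes fell, 19 of the 20 cell cycle genes did, among them Mki67 by 4.56 and Bub1 by 4.30. The median change was -3.33 over the 20 genes and 0.01 over all genes. Among the members, Ezh2 and Suz12 correlated at 0.800 with each other (Spearman 0.848), Cbx2 and Jarid2 at 0.900 (Spearman 0.681), Rnf2 and Jarid2 at 0.839 (0.625) and Ezh1 and Cbx7 at 0.832 (0.650). Bmi1 correlated at -0.842 with Jarid2 (Spearman -0.426), -0.803 with Cbx2 (-0.787), -0.790 with Rnf2 (-0.542) and -0.650 with Ezh2 (-0.740), so for Jarid2 and Rnf2 the order of the groups follows less closely than the values.

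**Figure D4:**
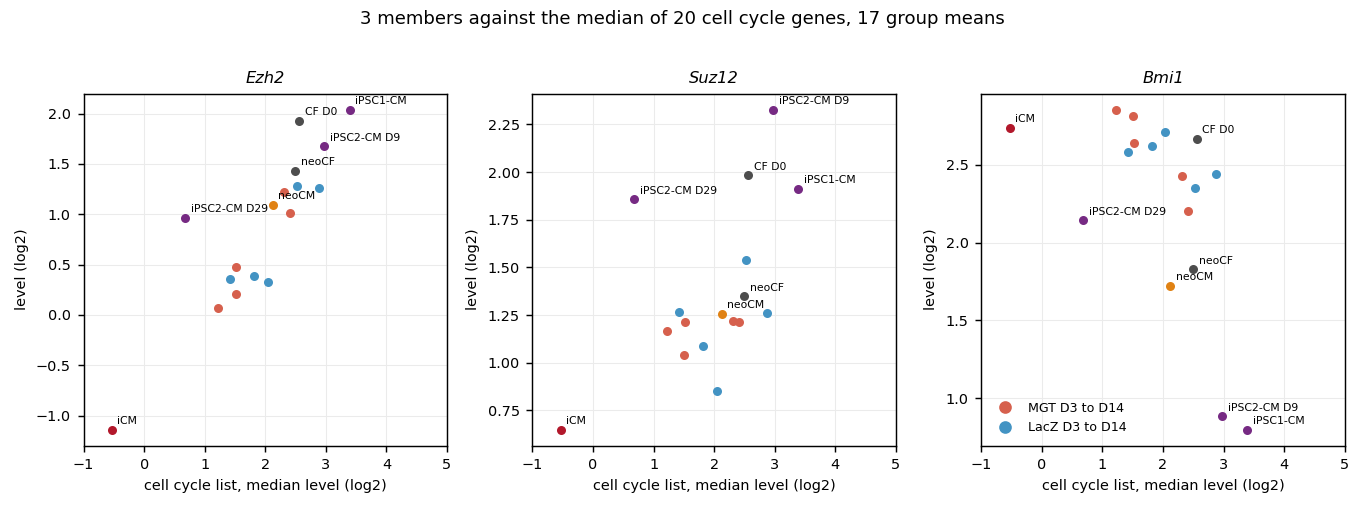
Group mean level of Ezh2, Suz12 and Bmi1 (log2, vertical axes) against the median level of 20 cell cycle genes (log2, horizontal axis) in the 17 groups; MGT groups are red, LacZ groups blue and the other groups named. Ezh2 climbs with the cell cycle median (Pearson 0.884) with iCM at the low end, and Bmi1 is lowest in the 2 iPSC-CM groups with the highest medians.

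The 5 genes with the pattern most like Bmi1 over the 17 group means, by Pearson correlation, were Slc10a3 (0.951), Mocos (0.949), Cript (0.949), Cdkl2 (0.943) and 0610010F05Rik (0.942). Those most like Ezh2 were Polq (0.975), Ska3 (0.968), Atad5 (0.959), 2700099C18Rik (0.954) and Mcm2 (0.953), the last of which is on the cell cycle list.

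Bmi1 and Ezh1 have more than 1 probe. The Bmi1 probes lie on chromosome 2 of mm9, the main one at 18607531 to 18607590 and the other at 18607987 to 18608046, on the plus strand and in the annotated transcript. They correlated at 0.917 over the group means. On the second probe, Bmi1 stood at 1.66 and 1.69 in iCM, 0.70 and 0.46 in neoCM and 0.14 and -0.02 in neoCF, and it rose by 0.52 in neoCM against neoCF and by 0.54 in MGT against LacZ on day 14, where the main probe was not called. The sides of both of these comparisons lie on different slides. Both Bmi1 probes put iCM above the iPSC lines and the neonatal cells.

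The 3 Ezh1 probes correlated at 0.650 to 0.887. The dimmest, well above background on 31 of 34 arrays, lies nearer the 5′ end of the transcript than the others and is shown because it is the one that disagrees. It had iCM at -3.69 and -3.77, against -3.45 and -3.65 in neoCF, a change of -0.18, and it changed by -0.51 in iCM against iPSC-CM, where the brightest probe rose. Whether the probes see different transcripts was not tested.
Ezh1 probe, mm9 chr11:101054534-101054593, minus strand: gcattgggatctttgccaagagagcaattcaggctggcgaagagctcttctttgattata

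**Figure D5:**
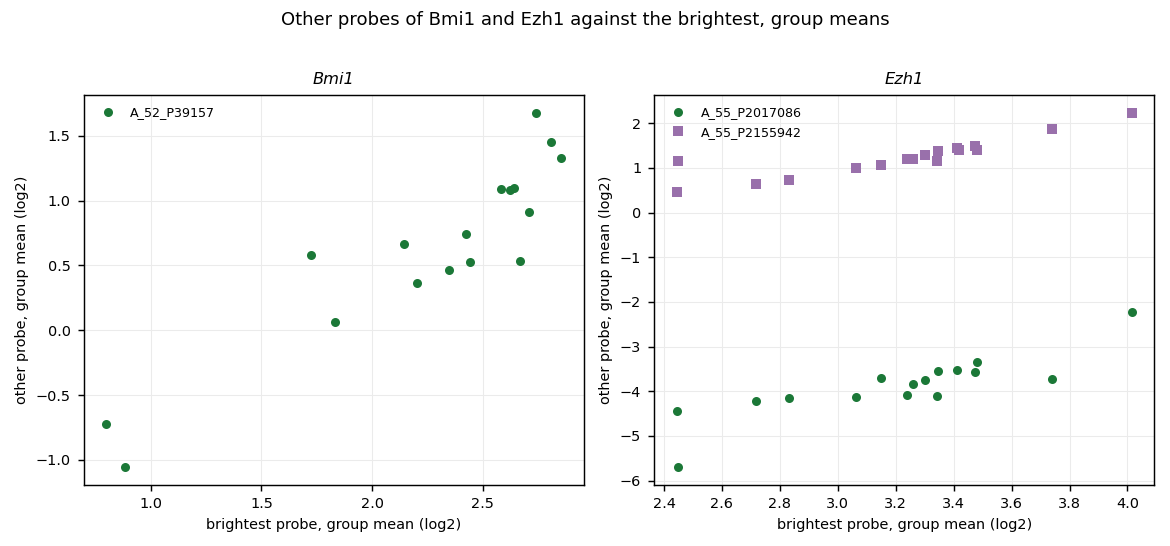
Group mean level of the other probes of Bmi1 and Ezh1 (log2, vertical axes) against that of the brightest probe of the same gene (log2, horizontal axes); each point is 1 of the 17 groups and colours and shapes mark probes. The Bmi1 probes climb together (Pearson 0.917), and of the Ezh1 probes the dimmest follows the brightest less closely (0.846) than the other does (0.887).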

How the data were processed

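Total RNA was measured on 34 one-colour Agilent arrays. Per the file headers, the authors' scanner files hold spot intensity from Feature Extraction 10.7.3.1, with a processed signal already background-adjusted within the array, and the array design was drawn on mm9. The deposited log2 values of the series matrix, made with limma per the submitters' processing notes, were used as an alternative. They correlated at 0.982 to 0.996 with the processed intensity, with column medians of 7.49 to 7.52, and no direction applies to one-colour values.

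Levels are log2 of the processed intensity minus the array's 75th percentile. Outlier spots were dropped, spots of a probe averaged, and 43371 of 55681 probes kept, those well above background in both replicates of some group. Probes were named through RefSeq GRCm38.p6, 26056 by accession, 3200 by symbol and 930 by older symbol, and 25495 stay unnamed. The brightest probe stands for a gene, which left 19408 genes. One linear model over all 34 arrays was fitted in limma 3.58.1 (R 4.3.3), with Benjamini-Hochberg adjustment, and was tested on simulated data. It holds 17 residual degrees of freedom, and genes called have an adjusted p under 0.05. Slides and scan days number 6 and 3, and 9 of 18 comparisons have both sides on the same slides. Alternatives were other scalings and background corrections, filters, probe rules, sample sets, weights, blocks and left-out arrays. A fold for a gene not well above background on 1 side is a bound from the lowest detected signal of those arrays.

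Text names all members, the up to 3 largest called rises and falls of a list in a comparison, and the 5 genes most like Bmi1 and Ezh2. Members and lists were chosen with earlier results of these data known. The scanner software marked 17 arrays for evaluation, and all were used. One gene of the cardiac factor list is not reported here.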

Additional observations from a re-analysis of the deposited data

Results flagged for a closer look

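The 2 iPSC lines, collected on different days, differed in 6 members, where 40.0% of all genes were called in iPSC2-CM D9 against iPSC1-CM, a comparison chosen after seeing the data. By limma, Cbx7 was higher in iPSC2-CM D9 by 3.9141 on the log2 scale (adjusted p = 1.19e-08), though it was above background on 1 of the 2 iPSC1-CM arrays. Jarid2 was higher by 1.3683 (adjusted p = 9.81e-06), Ezh1 by 1.2955 (adjusted p = 2.53e-07) and Rnf2 by 0.7457 (adjusted p = 0.00756). Ring1 was higher by 0.6182 (adjusted p = 0.0399) and Suz12 by 0.4148 (adjusted p = 0.0485). These were noted because the lines enter the iPSC-CM mean with equal weight and their difference passed its own test. Bmi1 differed by 0.09 (adjusted p = 0.638) and Ezh2 by -0.37 (adjusted p = 0.365). Without the iPSC2-CM D29 arrays, limma called 9 members, 8 higher and 1 lower, where 55.3% of all genes were called, with Ezh2 (-0.37, adjusted p = 0.00104), Eed (0.47, adjusted p = 0.000695) and Cbx2 (0.62, adjusted p = 0.00576) added and Bmi1 at an adjusted p of 0.526. Line and day of collection, 9 against 13, cannot be told apart.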

How the results depend on the processing

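Of 1088 alternatives for called values of the members, 992 kept direction and call, 89 lost the call and 7 turned. Of 1916 for values not called, 91 became calls and 8 turned. Bmi1 in iCM against iPSC-CM (1.73 to 2.57), Ezh2 in iCM against neoCF (-3.07 to -1.47) and Jarid2 in MGT against LacZ over days 3 to 10 (0.46 to 0.62) kept their calls throughout. The number of arrays and the spread of iPSC2-CM D29 limit the calls, and Cbx7 lies near background. Except where shown, causes were not tested.

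Turned values were as follows. Ezh1 in iPSC-CM against neoCF was -0.27 with quantile normalization, -0.34 with normexp and -0.33 with the authors' deposited log2 values, and in iCM against neoCF -0.018 with normexp. Eed in D29 against D9 was -0.68 without iPSC2-CM D29 replicate 2 and 0.85 without replicate 1. With CF D0 for neoCF, Ezh1 (0.0046) and Cbx2 (1.42) turned in neoCM, Eed (-0.81) and Jarid2 (0.14) in iCM, and Eed (-0.62) and Cbx2 (1.44) in iPSC-CM. Members called in neoCM were then 7, and with LacZ D14 for neoCF those in iCM were 2, with Cbx7 at -0.93. Other probes turned Bmi1 in neoCM against neoCF (0.52) and Ezh1 in iCM against iPSC-CM (-0.51) and neoCF (-0.18).

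Members called in LacZ D10 against D3 numbered 1 as reported, 2 with each scaling alternative (quantile, normexp, authors' values), each filter alternative or the mean of probes, and 3 with slide as a random block. Quantile normalization called 2 over days 3 to 10, the authors' values 1 in MGT D10 against D3, and the mean of probes 1 in MGT against LacZ on day 14. With no filter on dim probes, limma called 0 members on day 10 (1 at an unadjusted p under 0.05) and 6942 genes on day 14, against 4622.

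Fits of only the groups compared called 0 genes and 0 members in D29 against D9 (2503 genes and 2 members at an unadjusted p under 0.05). For MGT against LacZ they called 6816 genes and 5 members on day 3, 6548 genes on day 5, 5291 on day 7, 0 members on day 10 (0 at an unadjusted p under 0.05), 2328 genes on day 14, and 11623 genes and 3 members over days 3 to 10. They called 2061 genes for the change of the effect, 6832 in MGT D10 against D3, and 3 members in LacZ D10 against D3.

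Array weights gave 537 genes and 0 members (2 at an unadjusted p under 0.05) in D29 against D9. In MGT against LacZ they gave 9157 genes and 8 members on day 3, 9097 and 2 on day 5, 7960 and 1 on day 7, 5704 and 2 on day 10, 11881 and 4 over days 3 to 10, and 2952 and 2 for the change of the effect. They gave 9595 and 6 in MGT D10 against D3 and 7264 and 6 in LacZ D10 against D3.

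The fit without iPSC2-CM D29, chosen after seeing the data, gave 6 members in neoCM against neoCF. In MGT against LacZ it gave 4199 genes and 4 members on day 3, 5568 genes on day 5, 5563 on day 7, 5801 and 2 members on day 10, 8004 on day 14, 3 members over days 3 to 10 and 1692 genes for the change of the effect. It gave 5743 genes in MGT D10 against D3, and 6808 and 5 members in LacZ D10 against D3.

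Leaving out 1 array at a time gave 6101 to 11544 genes and 3 to 7 members in D29 against D9. It gave 913 to 939 genes in MGT against LacZ on day 3, 1694 to 1843 on day 5 (0 to 1 members), 1675 to 1891 on day 7, 1863 to 2178 on day 10 (0 to 1), 2764 to 4711 on day 14 and 252 to 517 for the change of the effect. It gave 1251 to 1380 in MGT D10 against D3 and 1409 to 1989 (0 members) in LacZ D10 against D3. Members numbered 2 to 3 in neoCM against neoCF and 4 to 5 in LacZ D14 against CF D0.

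Replicate numbers do not pair the samples: over 136 pairs of groups the deviations of same-numbered arrays correlated at -0.134 to 0.175 (median 0.001). The fit with the replicate block called 11266 genes in iCM against neoCF, against 11248, and changed no count of members called.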

Other observations

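Other genes that Polycomb is known to silence in many tissues also differed between the groups. Of 39 Hox genes, the positional regulators of the body axis, 30 could be tested. In iCM against neoCF, 14 of them rose and the others were not called (median log2 change 1.35, against 0.01 over all genes), with Hoxb6 higher by 4.21, where 29.6% of all genes rose. In LacZ D14 against CF D0, 20 rose, where 25.2% of all genes did. The median Hox levels in CF D0, -6.055 and -5.787, lay below the lowest detectable signal of those arrays. Falls from such levels could hardly be seen, so the count of rises there does not weigh rises against falls. Probes were kept if well above background in both replicates of any group, so a tested Hox gene can be dim in the reference, neoCF included. In MGT against LacZ over days 3 to 10, 2 rose and 12 fell, where 13.8% of all genes rose and 21.1% fell.

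Among cardiac transcription factors on a list of known Polycomb targets, Hand1 fell in iCM against iPSC-CM by 7.48 on the log2 scale, Nkx2-5 by 7.20 and Isl1 by 5.69, and Tbx20 rose by 0.63, where 39.2% of all genes fell. Against neoCF, Nkx2-5 (-2.39), Gata4 (-0.81) and Tbx20 (-0.55) fell in iCM, where 28.4% of all genes did. The 6 cardiomyocyte markers had medians of 1.04 and 0.27 in neoCF and -2.71 and -2.83 in CF D0, so neoCF holds cardiomyocyte transcripts. Their part was not tested. Gata4 is also carried by the retrovirus, and whether its probe sees that transcript was not tested. Nkx2-5 was thus lower in iCM in both comparisons.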
